A study of Mus musculus with 9 samples.

Results

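The genes described here encode the proteasome, its assembly chaperones, its activators and its inhibitor. They were taken from the array's gene annotation as every symbol made of Psm, one letter from a to g and a number, which gave 47 of the 19505 named genes, each with 1 probe set. Hippocampal RNA of 9 male mice (strain C57BL6 in the labels, C57BL/6NCrSlc in the study's methods) had been hybridised to Affymetrix Mouse Clariom S arrays, 1 per mouse. The groups were p1 (young, normal cognition, 11 weeks, mice 7, 19 and 20), p2 (adult, normal cognition, 47 weeks, mice 3, 8 and 18) and p3 (adult, cognitive decline, 47 weeks, mice 2, 6 and 11). The labels name no treatment and no engineered allele. The labels mark the p3 mice only with the letter D, read here as decline because the study names 3 such mice. Per its discussion, the study ranked its adult mice by maze and open field scores. It took the p2 and p3 animals from the 2 ends of that ranking, so neither group stands for 47-week mice in general. In the p2 columns 15915 of 22206 values lie on a straight line of row number and were dropped as filled in, which left p2 values for 13 of the 47 genes (of 5614 named genes with one). Values are log2 expression, so a difference of 1 is a doubling, and 3 arrays per group limit the precision of every comparison below.

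The proteasome degrades proteins that carry a ubiquitin chain. Its barrel-shaped core particle has outer rings of alpha subunits, which gate the entrance, and inner rings of beta subunits, some of which cut peptides. A regulatory particle caps the barrel: its base holds a ring of ATPases that unfold the substrate, and its lid removes the ubiquitin. Under interferon, cells exchange the catalytic beta subunits for the immunoproteasome forms Psmb8, Psmb9 and Psmb10, whose products feed antigen presentation. In neurons the proteasome takes part in the turnover of synaptic proteins.

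The arrays were alike over the whole array (pairwise r of 0.990 to 0.994 across probe sets for the p1 and p3 mice), and neuronal genes of the hippocampus were present: Camk2a, a kinase of excitatory synapses, lay between 18.29 and 18.75, and Prox1, a marker of dentate granule cells, between 11.78 and 13.19. Tissue next to the hippocampus differed between mice. The 14 choroid plexus genes measured lay on average 3.12 above their mean over the p1 and p3 mice in p1 mouse 19 and 2.84 above it in p3 mouse 11, against -1.79 to -1.13 in the other 4 of those mice. The 12 thalamus genes lay 2.34 above it in p3 mouse 11 and between -0.57 and -0.25 in the other p1 and p3 mice. In p2, 4 choroid plexus genes were measured, at -2.04 to -0.28, and 5 thalamus genes, at -0.66 to -0.05. The main counts, and the genes whose groups did not overlap, are therefore also given without p1 mouse 19 and p3 mouse 11.

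The subunits that make up the standard proteasome were all measured well above the level of genes that are silent in brain. As a guide to the level of an unexpressed gene, 1399 olfactory and vomeronasal receptor genes had a median of 3.91 and a 95th percentile of 5.35. The mean over the p1 and p3 mice lay between 10.22 and 12.77 for the 7 alpha ring genes, 9.87 and 12.88 for the 6 constitutive beta ring genes measured, 10.28 and 12.89 for the 6 ATPases of the base, 11.12 and 12.94 for its 3 other subunits, and 11.07 and 14.00 for the 8 lid genes. The 7 assembly chaperone genes spanned 3.58 to 11.63, and the 5 genes of activators and inhibitor 8.84 to 13.27. Probe sets differ in how strongly they bind, so these ranges do not rank the genes against each other. Psmb5, the constitutive partner of Psmb8, was not analysed here.

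The genes in the range of the silent genes were those of specialised proteasomes and 1 chaperone. Of the 47 genes, 42 had a mean above 5.35 and 5 did not: Psmb8 (4.85) and Psmb9 (3.82) of the immunoproteasome, the testis alpha subunit Psma8 (3.82), the thymus beta subunit Psmb11 (3.83) and the alpha ring chaperone Psmg3 (3.58). The third immunoproteasome subunit, Psmb10, lay at 7.34, above 99.6% of the silent genes. Psmb8 lay above 86.5% of them and Psmb9 above 45.2%. A level in this range does not show that a gene was not expressed, since a weakly binding probe set gives the same value.

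**Figure D1:**
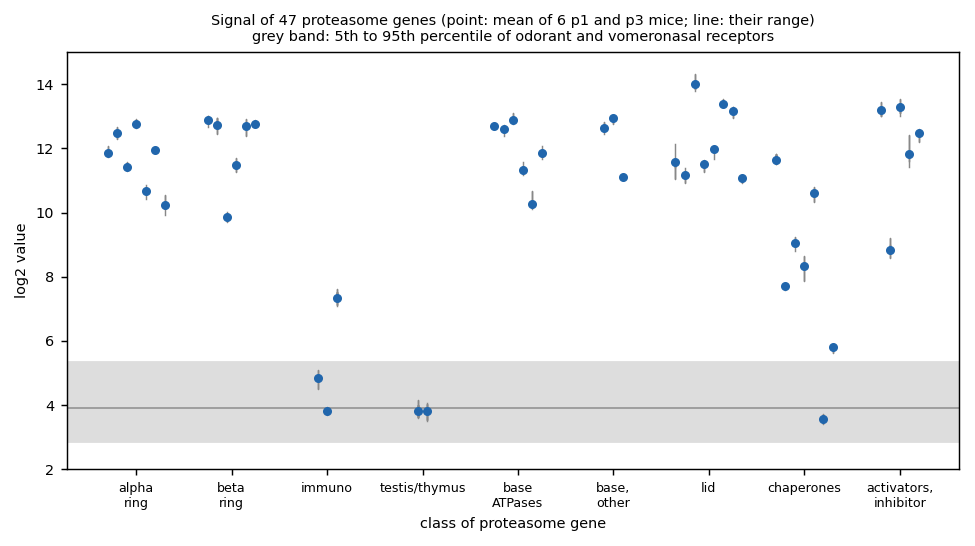
Level of each of the 47 genes as log2 expression on the vertical axis, with the classes along the horizontal axis. Each gene has 1 point for the mean over the 6 p1 and p3 mice and a line for their range. The shaded band runs from the 5th to the 95th percentile of 1399 silent receptor genes (2.87 to 5.35). Alpha ring, beta ring, base and lid genes sit at 9.87 or above, and Psmb8, Psmb9, Psma8, Psmb11 and Psmg3 lie inside the band.

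The first comparison asked whether the proteasome genes differed between adult mice with decline (p3) and young mice (p1), and all 47 genes had values for it. Each difference comes from a limma fit over the whole array, is p3 minus p1, and is given with its standard error (SE). The study called a gene where its fold exceeded 1.5 and its unadjusted p was below 0.05. None of the 47 genes passed this threshold, which 1.70% of all 22206 probe sets passed. Differences ran from -0.39 for Psmd3 to 0.26 for Psmb6, and the fold of Psmd3, 1.31, was the widest. The median over the 47 genes was -0.03, against 0.00 over all probe sets, with 29 genes below 0 and 18 above 0. Over all probe sets 49.1% lay below 0 and 50.6% above, and at a level of at least 10, which 35 of the 47 genes reached, 53.6% lay below. Without p1 mouse 19 and p3 mouse 11 the median was 0.02, 20 of 47 lay below 0 and 0 genes had an unadjusted p under 0.05. With all mice limma called 1 gene at that level, Psma5 (5.71% of probe sets). This call ended in a fit of only the groups compared (unadjusted p = 0.0747), with array weights (unadjusted p = 0.0551), with median centring (unadjusted p = 0.065) and with quantile normalization (unadjusted p = 0.0854). It remained with no variance prior (unadjusted p = 0.00873) and with trended and robust priors (unadjusted p = 0.034). It also remained in fits of probe sets above the median level (unadjusted p = 0.0273) or at a level of at least 6 (unadjusted p = 0.0299). Trended and robust priors also called Psma7 and Psmg2, and both level filters Psme2 and Psmg2. The methods' t-test and a one-way model with no variance prior, the test the array methods name, each called 4 (Psma5, Psmc6, Psmd2 and Psmg2). The shares of these other fits over all probe sets were not counted, so their numbers cannot be set against the array. After Benjamini-Hochberg adjustment limma called 0 of the 47, and 0 probe sets on the array.

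The measurements also bounded how large a difference could have been missed. The 95% interval of the difference lay within a fold of 1.5 either way for 38 of the 47 genes, against 49.9% of all probe sets and 77.2% of those at a level of at least 10. Of these 38, 34 lay above the range of the silent genes, and for the other 4 (Psma8, Psmb8, Psmb9 and Psmg3) a narrow interval does not bound a difference in expression. The 9 genes whose interval reached past it were Psma7, Psmb6, Psmb10, Psmb11, Psmd3, Psme2, Psme4, Psmg1 and Psmg2. The median residual SD between mice of a group was 0.14 for the 47 genes, 0.23 for all probe sets and 0.16 for probe sets at a level of at least 10. In whole tissue, less RNA per cell and fewer cells of a type that makes it cannot be told apart, here and below.

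**Figure D2:**
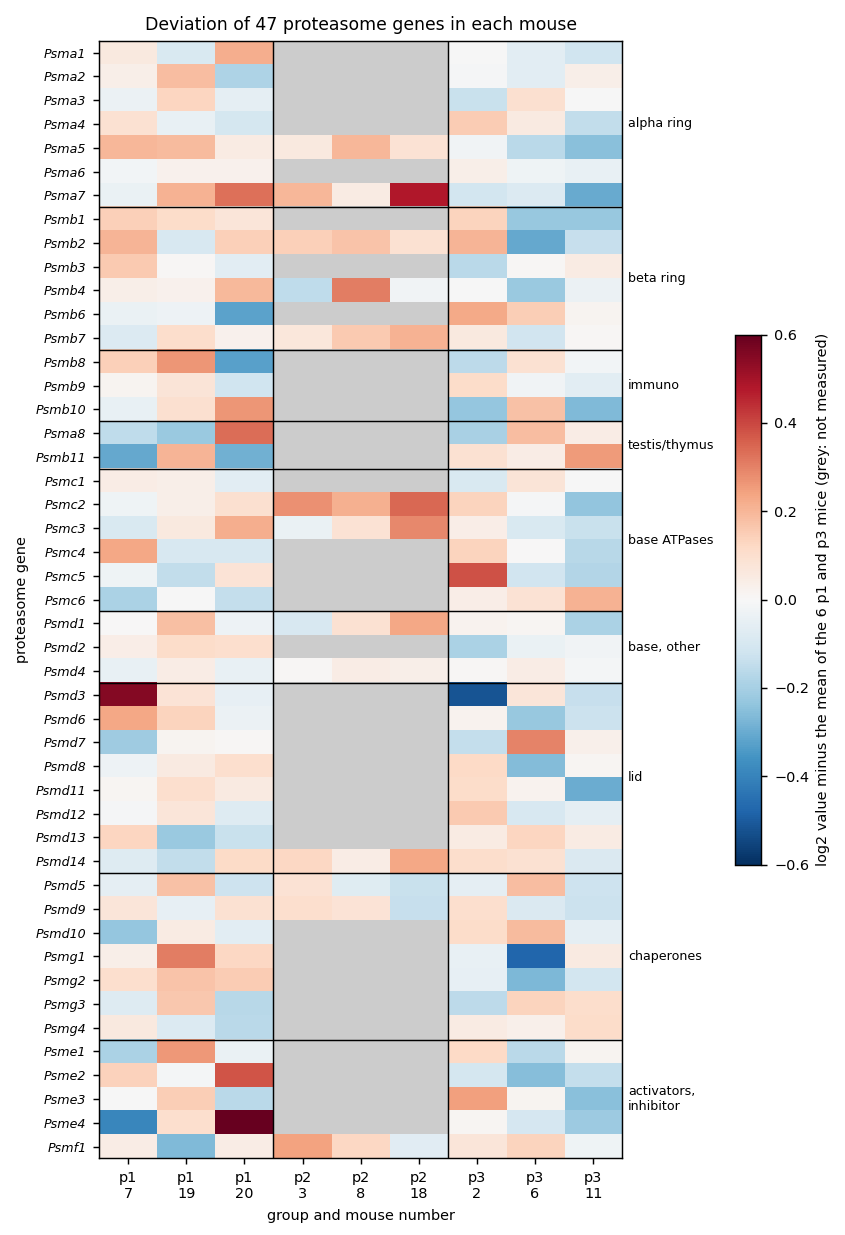
Each row is 1 of the 47 genes, grouped by class, and each column 1 mouse; colour gives the log2 level minus the gene's mean over the p1 and p3 mice, and grey marks p2 values that were filled in and dropped. The p3 column of mouse 11 was the lowest of the 6 p1 and p3 mice for 14 of the 47 genes, against 18.2% of all probe sets. That of p3 mouse 2 was the highest for 11, against 15.2% of all probe sets.

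Within the alpha ring, which gates the core, 2 of the 7 genes had p3 values that were all below the p1 values. Psma5 was measured at 10.87, 10.86 and 10.72 in p1 and at 10.65, 10.51 and 10.42 in p3. The highest p3 mouse lay just under the lowest p1 mouse, and the difference was -0.29 (SE 0.13, 95% interval -0.58 to 0.00, unadjusted p = 0.0485, adjusted p = 0.86 by limma). Psma7 was measured at 10.18, 10.43 and 10.55 in p1 and at 10.11, 10.14 and 9.92 in p3. Again no p3 mouse reached the lowest p1 mouse, by a narrow margin, with a difference of -0.33 (SE 0.16, 95% interval -0.69 to 0.03, adjusted p = 0.87). The other 5 alpha ring genes (Psma1, Psma2, Psma3, Psma4 and Psma6) had differences between -0.12 and 0.04, and the median of the ring was -0.03. On leaving out single mice, the unadjusted p of Psma5 ran from 0.0354 (without p3 mouse 2) to 0.138 (without p3 mouse 11), and it was under the threshold only without p3 mouse 2 or p1 mouse 20. Without both p1 mouse 19 and p3 mouse 11 the difference was -0.21 for Psma5 (unadjusted p = 0.24) and -0.24 for Psma7 (unadjusted p = 0.285).

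Promoter sequence was available from RefSeq (build GRCm38.p6, 250 bases before to 50 after each gene's start) for 39 of the 47 genes. The windows of Psma5 (chr3:108256676-108256975, plus strand) and Psma7 (chr2:180042415-180042714, minus strand) are shown because these genes had the lowest unadjusted p of p3 against p1 and of p3 against p2. Those of Psmb6 (chr11:70525107-70525406, plus strand) and Psmb9 (chr17:34187281-34187580, minus strand) are shown as a constitutive subunit and the immunoproteasome subunit that takes its place. Each is written 5′ to 3′ on the gene's strand, and capitals mark matches, on either strand, to any of the 4 motifs given after the sequences.
Psma5: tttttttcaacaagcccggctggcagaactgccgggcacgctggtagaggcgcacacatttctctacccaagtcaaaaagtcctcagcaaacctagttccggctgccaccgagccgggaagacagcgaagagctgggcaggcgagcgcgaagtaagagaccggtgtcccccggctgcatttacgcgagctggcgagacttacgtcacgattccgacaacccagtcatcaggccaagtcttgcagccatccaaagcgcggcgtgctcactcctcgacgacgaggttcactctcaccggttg
Psma7: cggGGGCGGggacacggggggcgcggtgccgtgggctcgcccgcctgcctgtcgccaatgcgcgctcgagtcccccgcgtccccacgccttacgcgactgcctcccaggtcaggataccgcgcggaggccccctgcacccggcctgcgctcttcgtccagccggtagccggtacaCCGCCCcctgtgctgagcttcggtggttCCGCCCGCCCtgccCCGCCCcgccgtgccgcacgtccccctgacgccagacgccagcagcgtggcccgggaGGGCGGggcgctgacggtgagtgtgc
Psmb6: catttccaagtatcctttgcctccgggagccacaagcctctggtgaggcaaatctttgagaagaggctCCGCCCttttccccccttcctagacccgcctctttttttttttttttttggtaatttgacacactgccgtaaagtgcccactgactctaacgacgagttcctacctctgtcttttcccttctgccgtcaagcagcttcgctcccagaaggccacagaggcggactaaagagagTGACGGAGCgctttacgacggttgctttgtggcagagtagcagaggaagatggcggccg
Psmb9: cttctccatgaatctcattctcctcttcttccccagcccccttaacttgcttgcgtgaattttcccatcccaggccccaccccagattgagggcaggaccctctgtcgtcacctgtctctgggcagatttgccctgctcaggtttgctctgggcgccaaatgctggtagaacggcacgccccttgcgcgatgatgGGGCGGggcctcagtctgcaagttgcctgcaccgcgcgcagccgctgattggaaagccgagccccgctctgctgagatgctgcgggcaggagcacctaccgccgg

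The 4 motifs searched were the GC box GGGCGG, the ETS motif ACTTCCGG, the core TGACNNNGC of the antioxidant response element, and the core of the interferon-stimulated response element, read as GAAA followed after 2 bases by a second GAAA. The Psma5 window held none of them, the Psma7 window 6 GC boxes of which 2 overlap, the Psmb6 window a GC box and an antioxidant response core, and the Psmb9 window 1 GC box. The GC box was found in 59.0% of the 39 genes with a window, against 38.2% of 27025 genes of the table, and the ETS motif in 23.1% against 4.31%. The antioxidant response core was found in 12.8% against 14.0%, in Psmb6, Psmc6, Psmd12, Psmd9 and Psme4. The interferon motif was found in 12.8% against 3.99%, in Psmb3, Psmd4, Psmd9, Psme1 and Psmg4. A match describes the letters of the window and is not a measured binding site. Psma5 and Psma7, both lower in every p3 mouse than in any p1 mouse, thus had unlike windows by these motifs, with a GC content of 59.0% and 77.0%.

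Among the constitutive beta subunits, 1 catalytic gene had p3 values above its p1 values and the other had intermixed ones. Psmb6, which cuts after acidic residues, was measured at 12.65, 12.66 and 12.37 in p1 and at 12.92, 12.84 and 12.71 in p3. All p3 mice lay above all p1 mice, with a difference of 0.26 (SE 0.15, 95% interval -0.08 to 0.61, unadjusted p = 0.119, adjusted p = 0.885). Psmb7, which cuts after basic residues, was measured at 12.69, 12.88 and 12.80 in p1 and at 12.83, 12.66 and 12.78 in p3. Its groups overlapped throughout, and the difference was -0.03 (SE 0.13, 95% interval -0.32 to 0.25). The other 4 genes, Psmb1, Psmb2, Psmb3 and Psmb4, which have no catalytic site, lay between -0.22 and -0.07. Of these only Psmb4 had p3 values all below its p1 values, at 11.49, 11.27 and 11.46 against 11.53, 11.52 and 11.69.

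The immunoproteasome genes, which replace the catalytic beta subunits, gave no difference beyond the spread between mice. Psmb8 was measured at 4.99, 5.11 and 4.52 in p1 and at 4.69, 4.94 and 4.83 in p3, a difference of -0.05 (SE 0.19, 95% interval -0.48 to 0.38). Psmb9, the counterpart of Psmb6, was measured at 3.84, 3.90 and 3.70 in p1 and at 3.93, 3.80 and 3.76 in p3, a difference of 0.02 (SE 0.14, 95% interval -0.31 to 0.34). Both genes' values were intermixed between the groups, and both lay in the range of the silent genes. Psmb10, the counterpart of Psmb7 and the only one of these genes above that range, was measured at 7.30, 7.44 and 7.61 in p1 and at 7.11, 7.52 and 7.08 in p3. The middle p1 mouse lay below the highest p3 mouse, and the difference was -0.21 (SE 0.17, 95% interval -0.61 to 0.19, unadjusted p = 0.255). Microglia are a main site of immunoproteasome expression in brain, and their 14 genes measured in p1 and p3 lay on average between -0.18 and 0.12 of their mean in these mice. Their median difference was 0.14, with 11 above 0 and 3 below. None passed the threshold. Under 0.05 by limma were Itgam (0.46, unadjusted p = 0.0469) and C1qb (0.40, unadjusted p = 0.0493), against 5.71% of probe sets. The part of microglia in these values was not tested.

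The core subunits of testis and thymus stayed in the silent range in every p1 and p3 mouse, and had no p2 values. Psmb11 was measured at 3.52, 4.03 and 3.54 in p1 and at 3.92, 3.87 and 4.08 in p3, a difference of 0.26 (SE 0.18, 95% interval -0.15 to 0.67). Without p1 mouse 19, the high one of p1, it was 0.43 (unadjusted p = 0.0331), and without p3 mouse 11 as well 0.36 (unadjusted p = 0.0877). Psma8 was measured at 3.67, 3.60 and 4.16 in p1 and at 3.63, 4.01 and 3.87 in p3, a difference of 0.03. In both genes 1 p1 mouse lay above at least 2 p3 mice.

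In the base of the regulatory particle, the ATPases lay on both sides of 0. Psmc6, an ATPase of the unfolding ring, was measured at 11.67, 11.86 and 11.72 in p1 and at 11.90, 11.95 and 12.07 in p3. All p3 mice lay above all p1 mice, and the difference was 0.22 (SE 0.14, 95% interval -0.10 to 0.54, unadjusted p = 0.147). The median of the 6 ATPases was -0.02. Psmd2, a scaffold of the base that docks ubiquitin shuttle proteins, was measured at 12.98, 13.05 and 13.04 in p1 and at 12.75, 12.90 and 12.92 in p3. All its p3 values lay below its p1 values, with a difference of -0.17 (SE 0.14, 95% interval -0.48 to 0.14, unadjusted p = 0.252). Psmd1, the other scaffold, and Psmd4, a ubiquitin receptor, had differences of -0.10 and 0.03.

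Of the 8 lid genes, Psmd3 had the most negative difference of all 47 genes. It was measured at 12.12, 11.65 and 11.52 in p1 and at 11.05, 11.64 and 11.43 in p3. The values overlapped, with p1 mouse 7 high and p3 mouse 2 low, and the difference of -0.39 (SE 0.22, 95% interval -0.89 to 0.11, unadjusted p = 0.11, adjusted p = 0.88) was within that spread. The other 7 lay between -0.22 (Psmd6) and 0.15 (Psmd13), and Psmd14, the subunit that cleaves ubiquitin from the substrate, was at 10.99, 10.92 and 11.18 in p1 and at 11.17, 11.16 and 10.98 in p3. The median of the lid was -0.04.

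Among the assembly chaperones, the pair that starts the alpha ring had lower means in p3. Psmg2 was measured at 10.71, 10.78 and 10.76 in p1 and at 10.56, 10.34 and 10.50 in p3. The groups did not overlap, and the difference was -0.28 (SE 0.14, 95% interval -0.60 to 0.03, unadjusted p = 0.0727, adjusted p = 0.87). Psmg1, its partner, was measured at 8.38, 8.65 and 8.47 in p1 and at 8.30, 7.87 and 8.40 in p3, where the highest p3 mouse lay above the lowest p1 mouse. Its difference was -0.31 (SE 0.18, 95% interval -0.72 to 0.10, unadjusted p = 0.123). The chaperones of the base, Psmd5, Psmd9 and Psmd10, had differences between -0.08 and 0.16, and the other pair of alpha ring chaperones, Psmg3 and Psmg4, differences of 0.05 and 0.12.

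Of the activators, Psme2 had the lowest unadjusted p. With Psme1 it forms the interferon-inducible cap that opens the core without ubiquitin. Psme2 was measured at 8.98, 8.83 and 9.22 in p1 and at 8.74, 8.59 and 8.70 in p3. No p3 mouse reached the lowest p1 mouse, and the difference was -0.33 (SE 0.15, 95% interval -0.69 to 0.02, unadjusted p = 0.0623, adjusted p = 0.866). Without p1 mouse 19 it was -0.42 (unadjusted p = 0.0389). The array also carries a near copy, Psme2b, so this signal may be shared. Psme1 had a difference of -0.02 and the nuclear activator Psme3 one of 0.01. Psme4, a large nuclear activator, was measured at 11.42, 11.91 and 12.41 in p1 and at 11.82, 11.71 and 11.59 in p3, with p1 mouse 20 above and p1 mouse 7 below every p3 mouse.

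In all, 8 of the 47 genes (17.0%) had p3 values that did not overlap the p1 values, against 10.4% of all probe sets. They were lower in p3 for 6 genes (Psma5, Psma7, Psmb4, Psmd2, Psme2 and Psmg2), against 5.21% of probe sets and 6.14% of those at a level of at least 10, and higher for 2 (Psmb6 and Psmc6), against 5.22%. Without p1 mouse 19 and p3 mouse 11, 8 genes lay lower and 8 higher without overlap, against 16.8% and 17.4% of probe sets. The 8 genes named above then had differences of -0.21 (Psma5), -0.24 (Psma7), -0.23 (Psmb4), -0.18 (Psmd2), -0.43 (Psme2), -0.28 (Psmg2), 0.37 (Psmb6) and 0.23 (Psmc6), with unadjusted p-values from 0.0658 to 0.357. The 30 genes of the constitutive core and the regulatory particle had a median difference of -0.05, with 21 below 0 and 9 above 0. By mouse, the mean over the 47 genes lay 0.01, 0.05 and 0.02 from their 6-mouse mean in p1 mice 7, 19 and 20 and 0.01, -0.02 and -0.07 in p3 mice 2, 6 and 11. The p3 mouse with the lowest mean, mouse 11, was the one with the high thalamus and choroid plexus genes. The 12 thalamus genes all had p3 means above p1, with a median difference of 0.83, and 7 of 10 oligodendrocyte genes had lower ones, with a median of -0.26. Mouse 11 was the lowest of the 6 mice for 14 of the 47 genes and for 18.2% of all probe sets, and the part of these tissues and cells in it was not tested.

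**Figure D3:**
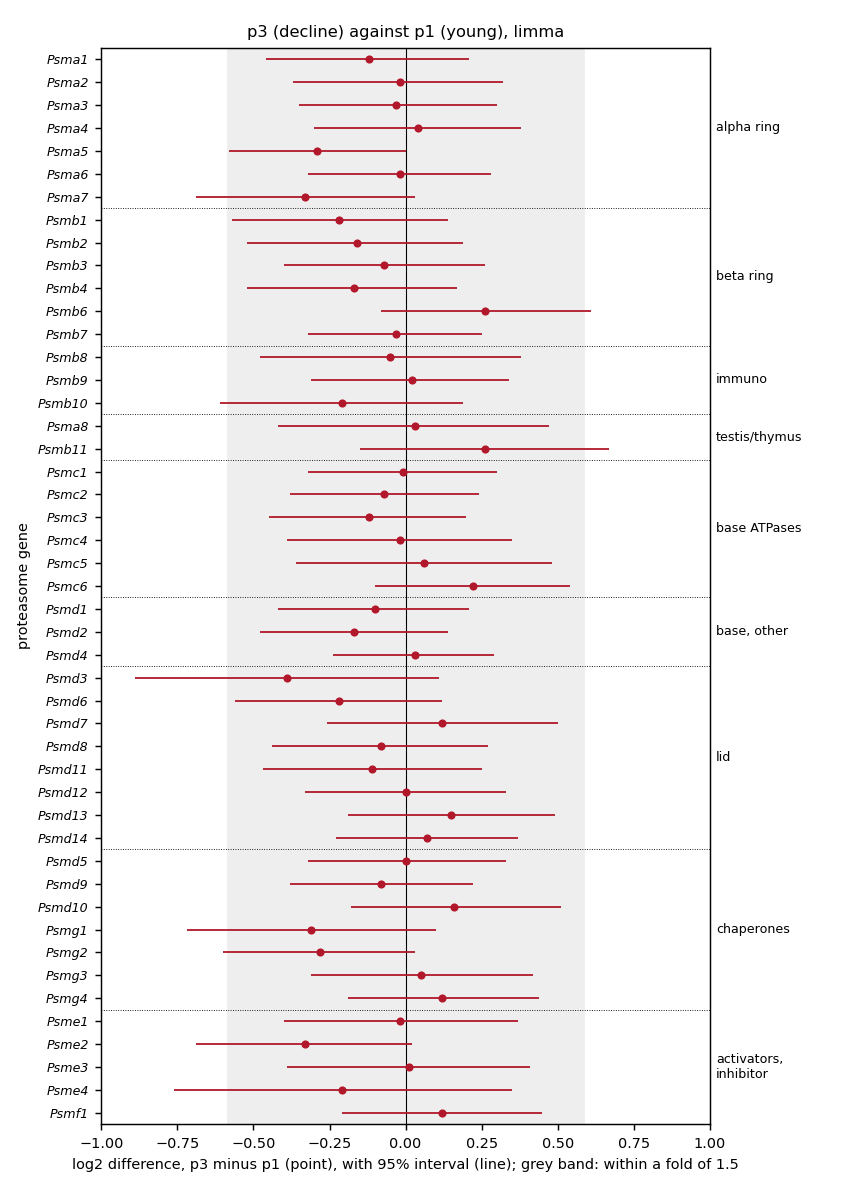
Log2 difference between p3 and p1 for each of the 47 genes, by class, with its 95% interval from limma as a line. The grey band marks a fold of 1.5 either way. The points lie between -0.39 (Psmd3) and 0.26 (Psmb6), none is outside the band, and the intervals of 9 genes reach past it.

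The comparison of p3 with p2 set adult mice of the same age but unlike cognition against each other, and could be made for 13 genes: Psma5, Psma7, Psmb2, Psmb4, Psmb7, Psmc2, Psmc3, Psmd1, Psmd4, Psmd5, Psmd9, Psmd14 and Psmf1. None passed the study's threshold, which 1.54% of the 6291 probe sets with p2 values passed, and limma called 0 after adjustment. Differences are p3 minus p2. At an unadjusted p under 0.05 limma called Psma7 and Psmc2 (5.33% of probe sets). The methods' t-test called Psma5 and Psma7, and the one-way model with no variance prior called Psma5, Psma7 and Psmc2. The share over all probe sets was not counted for either. Of the 13 genes 12 had a difference below 0 and 1 above (48.2% and 51.5% of probe sets), and of probe sets at a level of at least 10, 52.6% lay below. The median was -0.13, against 0.01 over all probe sets and -0.01 at that level. In 4 of the 13 genes (Psma5, Psma7, Psmb7 and Psmc2) every p3 mouse lay below every p2 mouse, against 5.34% of probe sets and 6.97% of those at that level. In none did every p3 mouse lie above (5.71% of probe sets). Without p3 mouse 11, which left 2 p3 mice, the same 4 genes lay lower without overlap, against 9.49% of probe sets. Then too 0 genes lay higher without overlap, against 11.1% of probe sets. Beside this, the 4 oligodendrocyte genes measured in p2 were all above 0 (median 0.21), as were the 5 thalamus genes (0.72 to 1.08) and the 4 choroid plexus genes (median 0.89), while the 5 hippocampal neuron genes had a median of -0.27 with 3 below 0. None of these passed the threshold, and their part in the result was not tested.

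Psma7, of the alpha ring, was measured at 10.42, 10.27 and 10.70 in p2, against 10.11, 10.14 and 9.92 in p3. The groups did not overlap, and the difference was -0.41 (SE 0.16, 95% interval -0.77 to -0.05, unadjusted p = 0.0301, adjusted p = 0.853 by limma). An exact permutation test of it gave a two-sided p = 0.1, the smallest that 3 mice against 3 allow. Psmc2, an ATPase of the base, was measured at 12.88, 12.82 and 12.95 in p2 and at 12.74, 12.60 and 12.37 in p3. All p3 mice lay below all p2 mice, p3 mouse 11 furthest, with a difference of -0.31 (SE 0.14, 95% interval -0.62 to -0.01, unadjusted p = 0.0456, adjusted p = 0.853). Psma5 was measured at 10.73, 10.87 and 10.76 in p2 and had a difference of -0.26 (SE 0.13, 95% interval -0.55 to 0.03, unadjusted p = 0.0719).

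Psmb7, the catalytic subunit, was measured at 12.84, 12.93 and 12.98 in p2, just above its p3 values, with a difference of -0.16 (unadjusted p = 0.237). Psmb2 had a difference of -0.22, the ATPase Psmc3 one of -0.17, and Psmd1 and Psmb4 -0.13 each. Values near 0 were found for Psmd14 (-0.10), the base chaperone Psmd9 (-0.05), the inhibitor Psmf1 (-0.04) and the ubiquitin receptor Psmd4 (-0.02). Psmd5, a base chaperone, was the only gene above 0, at 11.72, 11.56 and 11.50 in p2 and 11.58, 11.82 and 11.51 in p3 (difference 0.04). The 95% interval lay within a fold of 1.5 for 11 of the 13 genes, all but Psma7 and Psmc2, against 51.7% of probe sets. The lower values were weighted towards p3 mouse 11: the mean over the 13 genes, against their mean over the p1 and p3 mice, was 0.04, -0.05 and -0.13 in p3 mice 2, 6 and 11 and 0.08, 0.12 and 0.13 in p2 mice 3, 8 and 18. Without p3 mouse 11 the median difference was -0.14 with 11 of 13 genes below 0, and no gene had an unadjusted p under 0.05: the difference was -0.34 for Psma7 (unadjusted p = 0.0956) and -0.21 for Psmc2 (unadjusted p = 0.169). Leaving out p2 mouse 18 also ended both calls (Psma7 -0.29, unadjusted p = 0.122; Psmc2 -0.28, unadjusted p = 0.115). The call of Psmc2 further ended without any 1 of p2 mice 3 and 8, p3 mouse 6 and the 3 p1 mice, in a fit of only the groups compared (unadjusted p = 0.0665) and with median centring (unadjusted p = 0.0563), while that of Psma7 remained in these.

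The comparison of p2 with p1, which sets young and adult mice of normal cognition against each other, used the same 13 genes. None passed the threshold (1.29% of probe sets) and none had an unadjusted p under 0.05 by limma (4.26%). The methods' t-test and the one-way model with no variance prior each called Psmc2, with their shares over all probe sets not counted. Differences are p2 minus p1 and shared the p2 mice with the comparison before and the p1 mice with the first. Psmc2 was measured at 12.58, 12.64 and 12.70 in p1, below all 3 p2 values, and its difference was 0.24 (SE 0.14, 95% interval -0.06 to 0.55, unadjusted p = 0.107, adjusted p = 0.999). It was the only one of the 13 genes whose groups did not overlap (8.71% of probe sets either way, 4.40% higher and 4.31% lower in p2). Without p1 mouse 19, Psmb7 and Psmd4 also lay higher without overlap, 3 genes in all, against 9.39% of probe sets. Side by side, Psmc2 was thus highest in p2 and had means of 12.64, 12.88 and 12.57 in p1, p2 and p3, while Psma5 had means of 10.82, 10.79 and 10.53.

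The other differences between p2 and p1 lay between -0.04 and 0.17. Psmd14 lay at 11.19, 11.11 and 11.30 in p2, 0.17 above p1 (unadjusted p = 0.238), and Psmf1, which binds the core and can inhibit it, at 12.71, 12.59 and 12.40, against 12.51, 12.20 and 12.51 in p1, a difference of 0.16, which was 0.06 without p1 mouse 19 and 0.09 without p2 mouse 3. Psmb4 (-0.04), Psmd5 (-0.04) and Psma5 (-0.03) were the most negative. Psmb4 was measured at 11.34, 11.80 and 11.47 in p2, and Psmd5 at 11.58, 11.81 and 11.51 in p1. The median over the 13 genes was 0.05, against -0.01 over all probe sets, with 9 above 0 and 4 below (48.5% and 51.2% of probe sets), and without p1 mouse 19 and p3 mouse 11 it was 0.06, also with 4 below. The 4 oligodendrocyte genes measured were all lower in p2, with a median of -0.46. By limma 3 had an unadjusted p under 0.05, and 1, Cldn11, passed the study's threshold (-0.71, unadjusted p = 0.0245). Cldn11 was measured at 12.85, 13.04 and 11.87 in p1 and at 11.97, 11.83 and 11.83 in p2. For it, p1 mouse 20 thus lay among the p2 mice. The part of oligodendrocytes in these values was not tested. The 95% interval lay within a fold of 1.5 for 13 of 13 genes, against 54.9% of probe sets, so a difference of that size between these p1 and p2 mice was outside each interval. For the other 34 genes, the immunoproteasome among them, no p2 value was measured.

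**Figure D4:**
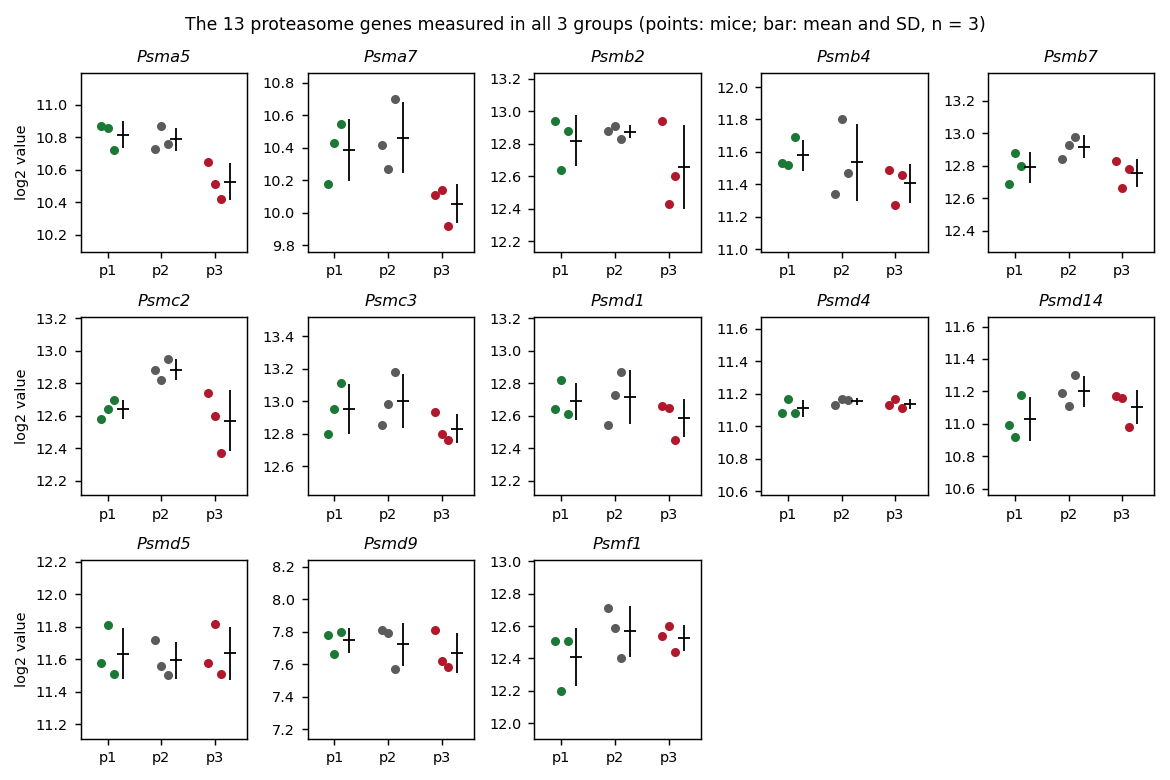
Log2 level of each of the 13 genes with p2 values, 1 panel per gene, with 1 point per mouse and a bar at the mean of each group (p1, p2, p3 from left to right). Psma7 and Psmc2 show all p3 points below all p2 points, Psmc2 also all p2 points above all p1 points, and in Psmd4 the 9 points lie between 11.08 and 11.17.

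Genes that work with the proteasome were read from 3 lists, and in p3 against p1 none of their members passed the threshold or had an unadjusted p under 0.05 by limma. The list of partners and regulators had 12 of its 17 names matched in the array's annotation, with 6 above 0 and 6 below and a median of 0.00. Names in this list and the next include older symbols of genes also listed. The lowest unadjusted p-values were those of the proteasome-bound ubiquitin hydrolases Uchl5 (0.31, unadjusted p = 0.105) and Usp14 (-0.40, unadjusted p = 0.137), and the core chaperone Pomp (-0.20, unadjusted p = 0.15). Usp14 was measured at 11.16, 11.16 and 11.44 in p1 and at 11.41, 10.61 and 10.54 in p3, so that p3 mouse 2 lay with the p1 mice and the other two below them. The ubiquitin and delivery list had 11 of 18 names matched and a median of 0.02. In it the extraction factor Ufd1 was at 0.23, the ubiquitin ligase Ube3a at 0.24 and the shuttle protein Ubqln4 at -0.21. The antigen presentation list had 8 of 10 names matched and a median of 0.15, with 6 above 0 and 2 below. In it the peptide-trimming enzyme Erap1 had a difference of -0.27 (unadjusted p = 0.147), the class I chain H2-D1 of 0.15 (unadjusted p = 0.327) and the peptide transporter Tap1 of 0.21 (unadjusted p = 0.354). Against p2, the 5 partner genes with values had a median of -0.17 and the 6 ubiquitin genes one of -0.07.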

How the data were processed

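RNA of 9 hippocampi was labelled (GeneChip WT Plus) and hybridised to Clariom S arrays. Values deposited by the authors are log2 expression per probe set, normalized in the Transcriptome Analysis Console. How background and probes were treated, and the genome build, were not given in the sources used here. In the p2 columns, 15915 values with more than 2 decimals lie on a straight line of row number and were set to missing. Over the probe sets measured in p2, array medians were 6.93 to 7.0 in all 9 mice. Gene symbols came from the platform annotation (of 22206 probe sets, 19572 had 1, 0 several and 2634 none).

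All probe sets were fitted in a single linear model of the 3 groups with lmFit and eBayes (limma 3.58.1, R 4.3.3). The residual degrees of freedom were 6, or 4 where p2 was missing, and the prior degrees of freedom 4.22. Benjamini-Hochberg adjustment ran over the probe sets of each comparison. The script was tested on simulated data. The array methods name a one-way ANOVA, run here as the one-way model with no variance prior. The study's general statistics also name t-tests, run here at the array threshold as the methods' t-test. Alternatives were a fit of only the groups compared, other variance priors or none, array weights, quantile normalization or median centring, filters on low values, other fold limits and leaving out each mouse. Values are given in every mouse compared for the immunoproteasome genes and their measured partners, Psmb6 and Psmb7. They are also given for the 3 genes with the smallest p on either side of each comparison and for the smallest p of each class. Some further genes were chosen after their values were seen (Psmb4 and Psmd14 in p3 against p1, Psma8, Psmg1, Psme4 and Usp14). The members and lists were chosen with earlier results of these data known. Slide and scan batches are not given in the labels, and replicates are single arrays of different mice. Promoter windows came from RefSeq, and both strands were searched. Plots used matplotlib 3.10.9 (Python 3.11.15).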

Additional observations from a re-analysis of the deposited data

How the results depend on the processing

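The count of proteasome genes past the study's threshold was 0 in all 3 comparisons under every alternative run except a fold limit of 1.2. That limit gave 1 of 47 genes for p3 against p1 and 2 of 13 for p3 against p2. The share of all probe sets past it was not counted. It was at most the 5.71% and 5.33% with an unadjusted p under 0.05 by limma. The median difference of p3 against p1 was -0.07 for the 41 genes above the median level, and likewise for genes at a level of at least 6, and ran from -0.08 to 0.02 when mice were left out, the highest being without p1 mouse 19 and p3 mouse 11. That of p3 against p2 ran from -0.21 (without p2 mouse 3) to -0.11, and that of p2 against p1 from 0.00 (without p1 mouse 7) to 0.09 (without p2 mouse 3; 0.08 without p1 mouse 20). With genes at a level of at least 10 only, a setting chosen after seeing the data, the medians were -0.03, -0.14 and 0.05. For the genes named by rule, 439 of 454 alternative values kept direction and side of the threshold and 15 turned direction, 14 of them on leaving out mice. Psmb9 turned to -0.02 in p3 against p1 under quantile normalization. On leaving out mice, p3 against p1 ran from -0.04 to 0.10 for Psmb9, from -0.08 to 0.01 for Psmb7 and from -0.23 to 0.07 for Psmb8 (0.06 without both mice named above). Likewise p3 against p2 ran from -0.05 to 0.11 for Psmd5, and p2 against p1 from -0.18 to 0.05 for Psmb4 and from -0.10 to 0.05 for Psmd5. Counts of genes without overlap on leaving out p1 mouse 19 and p3 mouse 11 were added after seeing the data. The cause of these shifts was not tested. No paired analysis was possible because the groups share no mouse numbers. With 3 arrays per group, the half-width of the 95% interval was 0.26 to 0.56 in p3 against p1.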
